A study of Mus musculus with 3 samples.

Results

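The 10 genes described here encode the light chains of myosin II and the kinases that phosphorylate them. They were taken by symbol (Myl1, Myl2, Myl3, Myl4, Mylpf, Myl6, Myl6b, Myl9, Mylk and Mylk2) from 23238 gene symbols, and all 10 had counts in each library. The RNA was that of C2C12, mouse myoblasts grown as an immortalized line, after 2 days in myogenic induction medium with horse serum. The cells lay on TCP (tissue culture plate), on GelMA (methacrylated gelatin, 15% w/v) or on GelMA-PSS (15% w/v GelMA with 1% w/v poly sodium 4-styrenesulfonate, a sulfonated polymer). Cell line, medium and induction were the same on all substrates, so TCP and GelMA served as controls for the hydrogel and for PSS. Only 1 library was sequenced per substrate, so differences between them could not be set against replicate error, and no test was run. In these bulk libraries, fewer cells of a type and less RNA per cell cannot be told apart.

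Each head of myosin II carries an essential and a regulatory light chain, which stiffen the lever arm of the motor. Muscle fibres use isoforms that are switched during development: Myl4 is the embryonic and atrial essential chain, Myl1 that of fast fibres and Myl3 that of slow and ventricular muscle, while Mylpf and Myl2 are the fast and the slow regulatory chains. Myl6 and Myl9 serve mainly the non-muscle and smooth muscle myosins of the cytoskeleton, and Myl6b, a close relative of Myl6, was classed with them here. Calcium signals activate the kinases that phosphorylate the regulatory chain, Mylk in smooth muscle and non-muscle cells and Mylk2 in skeletal muscle.

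RefSeq start-site windows (GRCm38.p6) were found for 9 of the 10 genes, and Mylk2 had none. The parts of these windows outside exons are shown for 5 genes. Mylpf and Myl1 were both lowest on GelMA as measured. Myl6 and Myl6b are chromosome neighbours whose levels differed, and Myl9 is of the smooth muscle class. Capitals mark an E-box (CANNTG, the motif bound by myogenic bHLH factors, counted once for both strands) or, in Myl9, a CArG box (the serum response factor motif, both strands). No marked motif overlaps another. The stretches of Mylpf, Myl1 and Myl6 lie inside the gene spans given below, before the start of one transcript but not of the whole gene.
Mylpf (chr7:127211358-127211607, plus strand): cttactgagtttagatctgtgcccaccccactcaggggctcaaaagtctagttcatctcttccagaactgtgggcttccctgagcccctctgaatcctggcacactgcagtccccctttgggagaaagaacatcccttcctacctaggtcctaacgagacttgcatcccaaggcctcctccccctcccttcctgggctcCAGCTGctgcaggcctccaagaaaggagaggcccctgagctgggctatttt
Myl1 (chr1:66945144-66945290, minus strand): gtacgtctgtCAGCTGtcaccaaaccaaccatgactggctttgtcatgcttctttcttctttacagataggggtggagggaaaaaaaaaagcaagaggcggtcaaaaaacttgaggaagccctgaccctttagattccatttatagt
Myl6 (chr10:128493901-128493999, minus strand): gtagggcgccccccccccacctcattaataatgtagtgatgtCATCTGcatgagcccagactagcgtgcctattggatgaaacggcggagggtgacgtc
Myl6b (chr10:128498686-128498935, minus strand): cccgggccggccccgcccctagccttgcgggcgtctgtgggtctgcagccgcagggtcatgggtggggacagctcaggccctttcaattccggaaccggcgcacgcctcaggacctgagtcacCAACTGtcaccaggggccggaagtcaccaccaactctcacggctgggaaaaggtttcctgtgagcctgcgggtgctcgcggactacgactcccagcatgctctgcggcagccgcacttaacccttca
Myl9 (chr2:156775214-156775419, plus strand): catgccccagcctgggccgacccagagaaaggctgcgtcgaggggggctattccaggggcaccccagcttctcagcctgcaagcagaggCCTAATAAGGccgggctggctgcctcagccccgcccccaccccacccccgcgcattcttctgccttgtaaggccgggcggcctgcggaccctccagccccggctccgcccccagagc
Both Mylpf and Myl1 held CAGCTG, while Myl6 held CATCTG and Myl6b CAACTG. An E-box was present in 72.3% of all 32851 windows, so its presence sets none of these genes apart. A CArG box was in 1.63% of the windows and a MEF2 site in 3.19%, and none of the stretches shown held a MEF2 site. A match is a description of letters and not a bound site.

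Levels are given as CPM (counts relative to library size, scaled with TMM factors), and ratios as log2(CPM + 1), which understates changes of low genes. The libraries held between 87071144 and 192171443 counts, so counting error was small for every gene but Myl3. A gene was kept (called tested below) if any library reached 1 CPM, which held for 13169 genes and for 9 of the 10 members. Myl3, the exception, had 25 counts on TCP, 20 on GelMA and 30 on GelMA-PSS, a CPM of 0.205, 0.220 and 0.166. The confidence intervals of those values overlap, so any difference of Myl3 was not detectable at this depth.

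**Figure D1:**
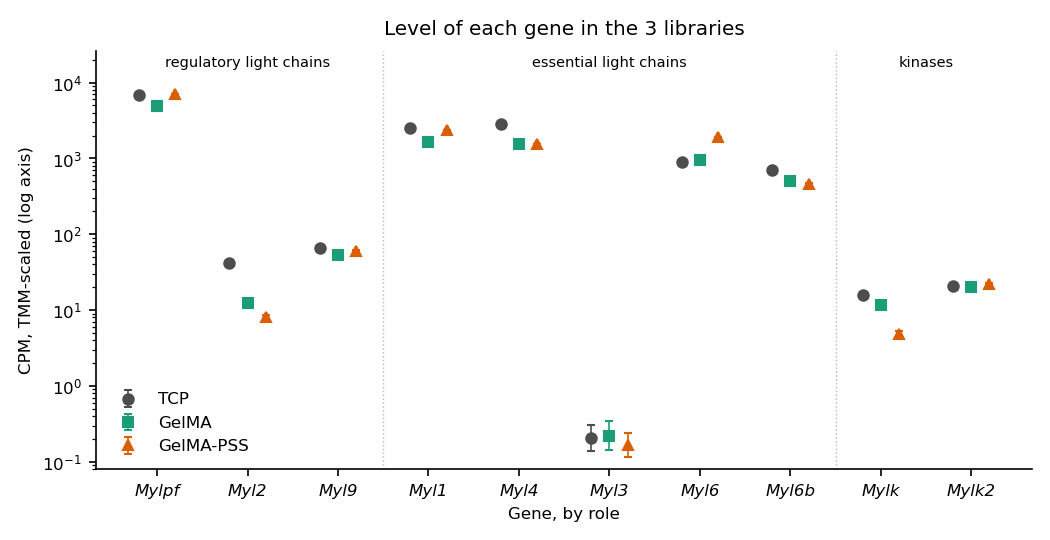
CPM of each gene (log axis) in the TCP, GelMA and GelMA-PSS libraries, 1 point per library, with bars for the 95% counting interval. Mylpf is highest in every library, Myl3 lies between 0.166 and 0.220, Myl2 and Mylk are lowest on GelMA-PSS, and Myl6 is highest there.

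Per kilobase of transcript, the scale on which genes can be compared, the order on TCP was Mylpf (9042 CPM per kilobase), Myl4 (3040), Myl1 (2347), Myl6 (1286) and Myl6b (685). On GelMA the same order held, at 6335, 1669, 1513, 1366 and 490 CPM per kilobase. On GelMA-PSS the order changed to Mylpf (9344), Myl6 (2803), Myl1 (2212), Myl4 (1658) and Myl6b (454), so Myl6 and Myl4 exchanged places. Myl9 and Myl2 followed on TCP at 58.6 and 57.3, with counting intervals that overlap, and the kinases and Myl3 were lower still in each library.

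Among the regulatory chains, Mylpf, the fast skeletal isoform (chromosome 7, 127208890 to 127214298, GRCm38, plus strand), dominated. Its CPM was 6926 on TCP, 4853 on GelMA and 7158 on GelMA-PSS, which ranked it 3, 10 and 5 among all symbols. As measured, the level was lower on GelMA than on the other substrates, with a log2 ratio of -0.51 for GelMA against TCP and 0.56 for GelMA-PSS against GelMA. Between GelMA-PSS and TCP it differed by 0.05 on the log2 scale, and that direction turned under 3 of 6 alternatives: scaling to total counts, TPM, and correction for length and GC content. The direction between GelMA-PSS and GelMA also turned under the correction, to a log2 ratio of -0.02.

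Myl2, the slow and ventricular regulatory chain (chromosome 5, 122100951 to 122113472, plus strand), differed most from TCP among the 9 genes, on both hydrogels. It had 5089 counts on TCP, 1134 on GelMA and 1487 on GelMA-PSS, which correspond to a CPM of 41.8 (95% counting interval 40.7 to 43.0), 12.5 (11.8 to 13.2) and 8.21 (7.80 to 8.64). TCP was highest and GelMA-PSS lowest, with no overlap of the counting intervals. Myl2 was 3.35-fold lower on GelMA than on TCP and 5.09-fold lower on GelMA-PSS than on TCP, while its ratio between GelMA-PSS and GelMA, a log2 ratio of -0.55, stayed within 2-fold. Myl9, the smooth muscle and non-muscle regulatory chain (chromosome 2, 156775420 to 156781658, plus strand), had a CPM of 66.2, 52.8 and 60.9 in the same order. Its log2 ratios lay between -0.32 and 0.20, so that all 3 substrates were within 2-fold.

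Per kilobase of transcript, Mylpf supplied 98.7% of the 3 regulatory chains on TCP, 99.0% on GelMA and 99.3% on GelMA-PSS. Myl2 supplied 0.626%, 0.267% and 0.120%, and Myl9 0.640%, 0.731% and 0.574%. The slow chain therefore made a smaller share on each hydrogel than on TCP. In CPM per kilobase, Mylpf exceeded Myl2 by 158-fold on TCP, 370-fold on GelMA and 830-fold on GelMA-PSS.

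Among the essential chains, the embryonic and atrial isoform Myl4 (chromosome 11, 104550663 to 104595753, plus strand) was highest on TCP. Its CPM was 2867 on TCP, 1574 on GelMA and 1564 on GelMA-PSS. The hydrogels differed from each other by a log2 ratio of -0.01, and both were below TCP, by -0.86 and -0.87. Once corrected for length and GC, GelMA-PSS lay below GelMA by a log2 ratio of -0.49. It also did with TPM (-0.48) and with scaling to total counts (-0.16), so equal levels on the hydrogels depend on the processing. Myl1, the fast skeletal isoform (chromosome 1, 66924295 to 66945404, minus strand), had a CPM of 2539, 1637 and 2393. As measured it was, like Mylpf, lowest on GelMA, with a log2 ratio of -0.63 against TCP and 0.55 for GelMA-PSS against GelMA. The latter came to 0.03 after correction for length and GC.

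Myl6, the main non-muscle and smooth muscle essential chain (chromosome 10, 128490860 to 128494145, minus strand), went the other way. Its CPM was 890 on TCP, 945 on GelMA and 1939 on GelMA-PSS. The controls were close to each other and GelMA-PSS stood above both, by 2.18-fold over TCP and 2.05-fold over GelMA, just past the 2-fold threshold. Neither ratio passed it with TPM or after correction for length and GC content, and that to GelMA also did not with scaling to total counts. Myl6b, its close relative (chromosome 10, 128494157 to 128498685, minus strand), lies 12 bases from Myl6 on the same strand and had a CPM of 703, 503 and 466. It was highest on TCP, and GelMA-PSS lay below TCP by a log2 ratio of -0.59.

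The longest shared run of this pair is shown because the genes are the most alike in coding sequence among the pairs compared. Their coding sequences were 79.2% identical over 452 aligned bases in GENCODE vM21, and the longest run in common was 46 bases, from coding position 110 in Myl6 and 278 in Myl6b.
Myl6 and Myl6b: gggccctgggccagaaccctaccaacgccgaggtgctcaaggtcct
All other pairs compared, those of light chains and that of the kinases, shared at most 29 bases in a row. The ratio of Myl6 to Myl6b in CPM per kilobase was 1.88 on TCP, 2.79 on GelMA and 6.17 on GelMA-PSS, and that of Myl1 to Myl4 was 0.772, 0.906 and 1.33. These pairs were picked after their values were seen.

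Per kilobase, the makeup of the essential chains differed between substrates mainly in Myl4 and Myl6. Myl4 supplied 41.3% on TCP, 33.1% on GelMA and 23.3% on GelMA-PSS, while Myl6 supplied 17.5%, 27.1% and 39.3%. Myl1 held a near constant share of 31.9%, 30.0% and 31.0%, and Myl6b supplied 9.31%, 9.73% and 6.37%. Myl6b was classed with Myl6 as non-sarcomeric, and its CPM, like that of Myl4, was lower on GelMA-PSS than on TCP, whereas that of Myl6 was higher. No alternative moved Myl6b to the sarcomeric side of the ratio that follows. Myl1, Myl3 and Myl4, the sarcomeric chains, stood to Myl6 and Myl6b together as 2.73 on TCP, 1.71 on GelMA and 1.19 on GelMA-PSS. On the log2 scale that ratio was lower on GelMA than on TCP (log2 change -0.67, 95% counting interval -0.69 to -0.66) and lower again on GelMA-PSS than on GelMA (-0.53, -0.54 to -0.52). For the regulatory chains the same ratio was 155, 136 and 173. Its direction for GelMA-PSS depended on the genes counted, against both controls, and against TCP also on the correction. The log2 change against TCP was 0.16, became -0.92 with the further regulatory chains Myl7, Myl12a and Myl12b added, and was -0.024 with corrected ratios. Against GelMA these values were 0.35, -0.73 and 0.18.

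**Figure D2:**
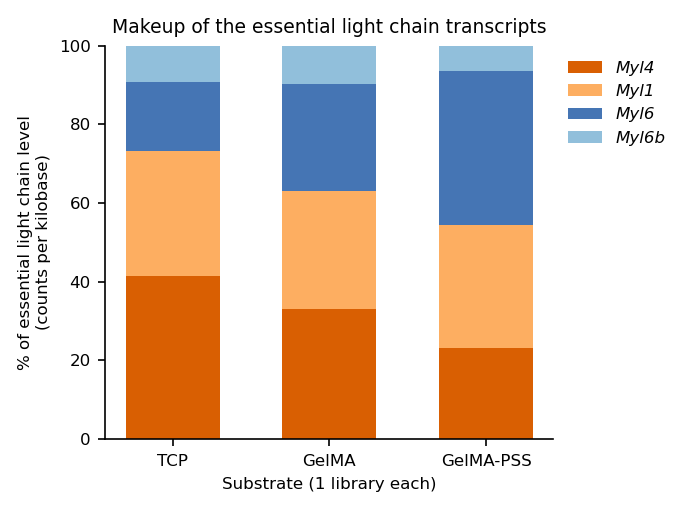
Share of each essential light chain (%, counts per kilobase of transcript) in the 3 libraries, as stacked bars. Myl4 narrows from 41.3% on TCP to 23.3% on GelMA-PSS and Myl6 widens from 17.5% to 39.3%, while Myl1 stays between 30.0% and 31.9%; Myl3, at most 0.00466%, is not drawn.

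Of the kinases, Mylk (chromosome 16, 34745210 to 35002420, plus strand) had 1904 counts on TCP, 1054 on GelMA and 888 on GelMA-PSS. The corresponding CPM was 15.6 (14.9 to 16.4), 11.6 (10.9 to 12.3) and 4.90 (4.59 to 5.24). GelMA-PSS was lowest, 2.37-fold below GelMA and 3.19-fold below TCP. Mylk2 (chromosome 2, 152911352 to 152923068, plus strand) had a CPM of 20.8, 20.2 and 22.1, with log2 ratios between -0.04 and 0.12 whose sign turned under other scalings. Per kilobase, Mylk2 exceeded Mylk by 3.52-fold on TCP, 4.62-fold on GelMA and 11.9-fold on GelMA-PSS. This ratio sets a transcript of 2951 bases against one of 7824, and so carries the difference by length described below. Symbol counts do not separate the long and short products of the Mylk locus.

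Counted by the 2-fold threshold, few members passed. For GelMA against TCP, 0 of 9 were higher, where 0.706% of all tested genes were, and 1 was lower (Myl2), where 0.296% were. For GelMA-PSS against GelMA, 1 was higher (Myl6; 1.77% of all genes) and 1 lower (Mylk; 2.33%). Against TCP, 1 was higher (Myl6; 3.72%) and 2 were lower (Myl2 and Mylk; 3.13%). Against both controls, 1 was higher (Myl6; 1.37%) and 1 lower (Mylk; 1.16%). With 9 genes, these counts describe single genes and not the group. The median log2 ratio of the members was -0.48, 0.12 and -0.12 in the order GelMA against TCP, GelMA-PSS against GelMA and GelMA-PSS against TCP, beside -0.01, 0.03 and 0.04 over all tested genes. GelMA is in both of the first 2 comparisons and TCP in the first and the last, so they are not independent of each other.

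Transcript length moved with the ratios of the GelMA-PSS library, and all members but Mylk2 lie near the ends of its range. The 8 light chains have transcripts of 692 to 1128 bases and Mylk one of 7824. When genes were split by length into 10 bins of equal size, the bin of shortest transcripts (up to 1124 bases) behaved unlike that of the longest. In the shortest bin the median of the log2 ratios was 0.58 for GelMA-PSS against GelMA and 0.51 against TCP, and 10.1% and 14.1% of the genes there were 2-fold higher. In the longest bin the medians were -0.62 and -0.47, and 15.6% were 2-fold lower than on GelMA. The part of length in the members' differences was not tested, and the ratios of GelMA-PSS are therefore also given after correction for length and GC content by loess.

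After this correction Myl6 no longer passed 2-fold, with values of 0.45 (GelMA-PSS to GelMA) and 0.60 (GelMA-PSS to TCP) on the log2 scale. Mylk passed against TCP (-1.02) but not GelMA (-0.44). Myl2 kept its direction and was further below, at -1.13 against GelMA and -2.73 against TCP. Mylpf and Myl1 came to -0.02 and 0.03 against GelMA, and to -0.46 and -0.50 against TCP. Myl4 came to -0.49 against GelMA and to -1.27 against TCP, the latter past 2-fold, and Myl6b to -0.51 and -0.92. Myl9 came to -0.20 against GelMA and -0.44 against TCP, and Mylk2, of middle length, to 0.17 and 0.12. For GelMA against TCP Myl2 came to -1.63 and Myl4 to -0.81, and the other members to between -0.57 and 0.12. The difference between Myl6 and the other essential chains of like length did not depend on it in direction, since Myl6 stayed above Myl1, Myl4 and Myl6b in both comparisons.

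**Figure D3:**
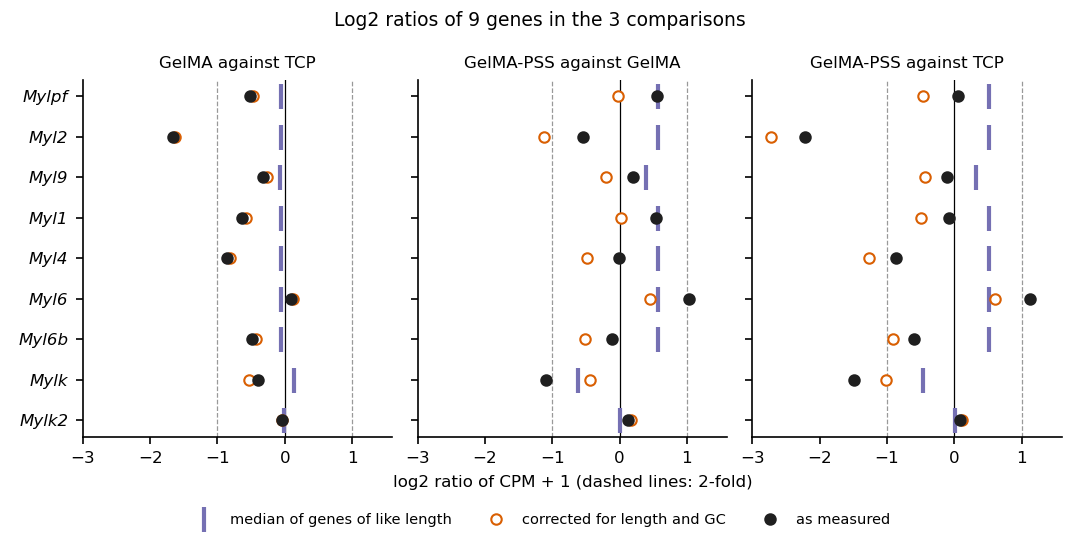
Log2 ratio of CPM + 1 for 9 genes in the 3 comparisons: black points as measured, open points after correction for length and GC content, and violet bars the median of the other genes in the same bin of transcript length. For GelMA-PSS, the short light chains shift to the left with the correction and Mylk to the right, and Myl2 lies at -2.73 against TCP after it.

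**Figure D4:**
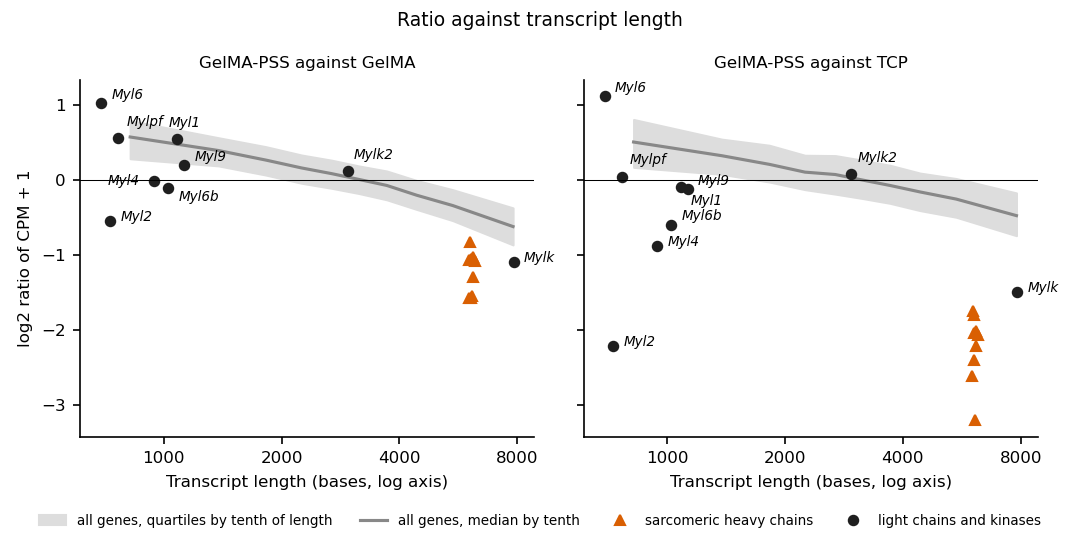
Log2 ratio of CPM + 1 against transcript length (bases, log axis) for light chains and kinases (points) and sarcomeric heavy chains (triangles), with the median and quartiles of all genes in 10 bins of length. The line falls from 0.58 to -0.62 against GelMA and from 0.51 to -0.47 against TCP. In both panels Myl6 lies above it, and Myl2, Myl4, Myl6b, Myl9, Mylk and the heavy chains below. Mylpf and Myl1 also lie below it against TCP.

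The light chains work only on a heavy chain, so the sarcomeric myosin heavy chains are set beside them. All 9 were 2-fold lower on GelMA-PSS than on TCP (3.13% of all genes), and 8 of 9 than in both controls (1.16%). For GelMA-PSS the medians were -1.08 against GelMA and -2.07 against TCP. On GelMA all 9 were also below TCP, 4 of them 2-fold lower (0.296% of all genes), with a median of -0.99. The heavy chain transcripts have 6016 to 6230 bases, far longer than those of the light chains. After correction 9 of 9 passed on GelMA-PSS against TCP (2.40% of all genes) but 3 of 9 against GelMA (1.20%). For GelMA against TCP 5 of 9 then passed (0.260%). The corrected median was -1.08 there, beside -0.62 for GelMA-PSS against GelMA. Per kilobase, Myl1, Myl4 and Mylpf together stood to the heavy chains as 5.61 on TCP, 6.24 on GelMA and 18.7 on GelMA-PSS. This ratio sets short transcripts against long ones and carries the difference by length in full. Of the non-muscle and smooth muscle heavy chains, 3 of 4 were tested and 0 passed 2-fold in any comparison. The partner of Myl9 and Myl6 in most cells, Myh9, had a CPM of 1279, 1779 and 934. Its log2 ratios of GelMA-PSS, -0.93 to GelMA and -0.45 to TCP, came to -0.28 and 0.03 after correction.

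Of 6 other light chains and light chain kinases, 3 were tested. Myl12b, a non-muscle regulatory chain, had a CPM of 330 on TCP, 238 on GelMA and 873 on GelMA-PSS and passed 2-fold above both controls, also after correction (log2 ratios 1.70 and 1.27). Its near-identical partner Myl12a had a CPM of 1249, 1020 and 2342, above GelMA by a log2 ratio of 1.20 and above TCP by 0.91. Reads could be split between them, so each value is uncertain. Mylk4, a further kinase of the family, had a CPM of 67.0, 40.5 and 18.3 and was 2-fold lower than in both controls, although after correction it passed against TCP (-1.63) and not GelMA (-0.84). Myl7, the atrial regulatory chain, had 0 counts in every library, which allows a CPM of up to 0.0246 on TCP, 0.0330 on GelMA and 0.0166 on GelMA-PSS. Myl10 and Mylk3 stayed below 1 CPM.

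Upstream of the light chains, 20 of 21 regulators of their phosphorylation were tested and 0 passed 2-fold against both controls in either direction. Of all genes, 1.37% were higher and 1.16% lower. Cit, a kinase of cytokinesis, was highest on GelMA, with a CPM of 7.63 on TCP, 15.5 on GelMA and 7.02 on GelMA-PSS. Its log2 ratio of GelMA-PSS to GelMA was -1.04 (2.33% of all genes were 2-fold lower). Ppp1r12b, a targeting subunit of myosin phosphatase, was lower on GelMA-PSS than on TCP by -1.01 (3.13%). After correction these ratios came to -0.54 and -0.94, and no regulator was 2-fold lower. Among the most abundant were Mprip, with a CPM of 487, 543 and 466, the GTPase Rhoa, with 421, 414 and 601, and Ppp1r14b, with 389, 389 and 507. Over the list, the median of the log2 ratios was 0.10 for GelMA-PSS to GelMA and -0.0039 for GelMA-PSS to TCP.

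Markers of the cells bear on how the isoforms are read. The 7 myotube markers summed to a CPM between 11824 and 17677, highest on TCP. Only Ttn was 2-fold lower on GelMA-PSS than in both controls, a call that was lost after correction. All 7 were lower on GelMA-PSS than on TCP, by corrected log2 ratios of -0.52 to -1.06. Tnnc2 alone then passed 2-fold, as 2.40% of all genes did. Against GelMA the corrected ratios lay between -0.54 and 0.24. On GelMA all 7 were also lower than on TCP, by corrected log2 ratios of -0.14 to -0.61. The 7 myoblast and early differentiation markers summed to between 6575 and 7547, and none passed against both controls. Against TCP alone 1 passed, Myf5, with a log2 ratio of 1.33 (3.72% of all genes) and 1.07 after correction (2.01%). Of the 7 log2 ratios of GelMA-PSS to TCP, 3 lay above 0 and 4 below, with Pax7 lowest at -0.80 (-0.90 after correction). Of the cardiomyocyte markers, whose tissue uses Myl2, Myl3 and Myl4, the defining genes Nppa, Nkx2-5 and Mybpc3 had at most 0.263 CPM. Gata4, a cardiac transcription factor, had a CPM of 16.0, 15.6 and 13.7, Tnni3, the cardiac troponin I, 2.41, 1.53 and 2.54, and Tnnt2, which developing skeletal muscle also uses, reached 4863. Nppb was higher than in both controls at a CPM of 1.56, 1.44 and 4.89, which after correction stayed within 2-fold, and Myh6, also counted among the heavy chains, was lower at 457, 144 and 48.4. Of the smooth muscle markers, Acta2 lay between 2556 and 3248 and Myh11, the defining heavy chain, at or below 0.32, and none passed 2-fold. The fibroblast and adipogenic markers summed to 216 to 279 with none past 2-fold, and the endothelial and blood cell markers to between 2.45 and 2.51.

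The genes most like Mylpf in both ratios to TCP, among 4168 genes with a mean CPM of 50 or more, were Dusp1, Serpinb1a and Ugp2, at Euclidean distances of 0.031, 0.033 and 0.060 over 3 libraries. Dusp1 had a CPM of 75.6 on TCP, 53.7 on GelMA and 78.8 on GelMA-PSS. Those most like Mylk were Pde4dip, Cacna1s and Myom3, at 0.059, 0.073 and 0.11. Pde4dip had a CPM of 530, 417 and 185. The genes near Mylk have transcripts of 5575 to 8376 bases, long like that of Mylk.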

How the data were processed

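RNA of C2C12 cells was sequenced from 1 library per substrate. For each library the authors deposited a table of whole-number counts by gene symbol that were not normalized. The methods name a TruSeq kit and strand-specific paired-end reads, whereas the sample labels name a SMARTER kit. The submitters' processing notes name TopHat, edgeR, mm10 and hg19 with no role given. The counting tool and annotation are not given in the sources used here, and it is not known whether both reads of a pair were counted, in which case the intervals are too narrow.

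The files list 23282 lines, and lines of the 35 repeated symbols were summed. The totals were 119799095 counts on TCP, 87071144 on GelMA and 192171443 on GelMA-PSS. CPM used TMM factors of 1.02, 1.04 and 0.943 (edgeR 4.0.16, R 4.3.3), with a filter of 1 CPM in at least 1 library, a pseudocount of 1 CPM and a threshold of 2-fold. No test was possible with 1 library per group. The 95% intervals on single levels and ratios cover counting error only, and a count of 0 was read as up to 3 counts. Transcript length, GC content and positions came from GENCODE vM21 (GRCm38), for 13054 of the tested genes, matched by symbol, with 1 transcript per gene. The correction subtracted loess fits with a span of 0.3 on length and GC content (statsmodels 0.14.6). The fold calls and the correction were tested on simulated data. Start-site windows came from RefSeq (GRCm38.p6).

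The members, gene lists and tests were chosen with earlier results of these data known. The text names all members, list genes past 2-fold against both controls, the most abundant genes of a list, and for Mylpf and Mylk the 3 genes of nearest pattern. 1 abundant list gene is not reported here. Cit, Ppp1r12b, Myf5, Pax7, the cardiac and smooth muscle markers beyond that rule and the pairs of isoforms were named after their values were seen. Alternatives covered the fold, pseudocount, filter, scaling (DESeq2 1.42.0 size factors, total counts, TPM), division by length, the genes in the regulatory class and the correction.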

Additional observations from a re-analysis of the deposited data

How the results depend on the processing

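No paired analysis was possible because each substrate has 1 library and no test was made, and for the same reason no replicate could be left out. The number of members past the threshold stayed within 1.5 times under DESeq2 size factors, a pseudocount of 0.25 CPM and no filter. With a 1.5-fold threshold, 3 members were lower on GelMA than on TCP and 4 were lower on GelMA-PSS than on TCP. Of all tested genes, 2.12% and 11.5% were. With total count scaling, 0 members were higher on GelMA-PSS than on GelMA (0.912% of all genes) or than in both controls (0.737%). With TPM, and with ratios corrected for length and GC, 0 were higher on GelMA-PSS than on GelMA, on TCP or in both. Of all genes, 0.291%, 1.09% and 0.222% were with TPM, and 0.666%, 2.01% and 0.437% with the correction. With TPM, which moved the median of all genes to -0.36 against GelMA and -0.31 against TCP, 2 were lower than on GelMA, 4 than on TCP and 2 than in both controls. Under the correction the gene lower than in both controls was Myl2 in place of Mylk. The log2 change of the essential ratio (sarcomeric to non-sarcomeric) was -0.61 for GelMA against TCP, -0.43 for GelMA-PSS against GelMA and -1.05 for GelMA-PSS against TCP without division by length, and -0.65, -0.47 and -1.11 with corrected ratios. That of the regulatory ratio reversed to -0.73 against GelMA and -0.92 against TCP with Myl7, Myl12a and Myl12b added, and came to 0.18 against GelMA and, reversed, -0.024 against TCP with corrected ratios. The added genes, mostly Myl12a and Myl12b, set the first reversal, and the cause of the second was not tested. The sign of a single gene turned only for Mylpf, Myl9 and Mylk2, each at a log2 ratio of at most 0.56 in size. Counting error was widest for Myl3, and for Mylk2 the counting interval of the ratio of GelMA to TCP also covered no change. If counts were halved, so did those of Mylk2 for GelMA-PSS to TCP and of Myl4 for GelMA-PSS to GelMA. The spread between cultures is unknown for every gene.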
